A study of Mus musculus with 8 samples.

Results

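Windows at the 4 mouse Hox clusters were described here by the hotspots of 3 chromatin remodelers, Brg1, CHD4 and Snf2h. The remodelers were mapped by chromatin immunoprecipitation and sequencing (ChIP-seq). A hotspot is a stretch of genome that the authors' caller reported as holding more sequence tags than its surroundings. The members were chosen by position alone: every hotspot that starts in 1 of 4 windows of 500 kb on the mm9 build, which are chr15:102500000-103000000 for HoxC, chr11:95900000-96400000 for HoxB, chr6:51900000-52400000 for HoxA and chr2:74300000-74800000 for HoxD. These windows hold 911 of the 820608 hotspots in 6 lists, and hotspots that share at least 1 bp join into 489 of the 532751 merged regions of the genome. HoxC has 103 merged regions, HoxB 101, HoxA 128 and HoxD 157. All 6 lists come from 3134 cells, a line of mouse mammary epithelial cells, with 2 libraries for each antibody, and the sample labels name no treatment or other genotype. The 2 input libraries were not analysed here. Nothing in the labels says that the 2 libraries of an antibody came from separate cultures, so p-values measure the spread between these libraries, which may be technical, in 1 cell line.

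Hox genes encode homeodomain transcription factors that set position along the body axis, and in mammals they stand in 4 clusters on different chromosomes, ordered along each cluster roughly as they are used along the body. Inactive Hox clusters are textbook targets of Polycomb repression, and parts of the clusters are active in many adult epithelia, the mammary gland among them. Brg1 is the motor of SWI/SNF complexes, which slide and evict nucleosomes. CHD4 is the motor of the NuRD complex, which joins remodeling to histone deacetylation, and Snf2h is the motor of ISWI complexes, which space nucleosomes. By the RefSeq order of genes, HoxC lies between Calcoco1 and Smug1, HoxB between Ttll6 and Skap1, HoxA between Skap2 and Evx1, and HoxD between Evx2 and Mtx2. Gene positions on mm9 were not used here, so no hotspot is assigned to a gene and the windows' names rest on the coordinates alone. How much of each window is cluster and how much is flanking sequence was not determined. For hotspots and regions, HoxC, HoxB, HoxA and HoxD therefore name whole windows, flanks included.

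The clusters also share microRNA genes, whose mature sequences are shown because related copies lie in several of the windows compared here. Capitals mark the seed, bases 2 to 8, which pairs with target mRNAs, and the sequences are those of RefSeq on GRCm38.p6.
miR-196a-5p (HoxC and HoxB): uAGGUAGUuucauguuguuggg
miR-196b-5p (HoxA): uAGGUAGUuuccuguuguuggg
miR-10a-5p (HoxB): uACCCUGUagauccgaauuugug
miR-10b-5p (HoxD): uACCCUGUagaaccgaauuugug
miR-615-3p (HoxC): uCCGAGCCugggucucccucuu
miR-615-5p (HoxC): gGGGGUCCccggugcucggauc
The copies in HoxC, HoxB and HoxA share the seed of miR-196, and the copies in HoxB and HoxD share the seed of miR-10. No hotspot could be tied to these genes, because their positions are known here only on another build.

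The promoters of a set of paralogs, genes descended from 1 ancestral Hox gene, are shown as examples of the DNA at a cluster gene's start. Each sequence below runs from 250 bases before to 50 bases after the gene's start in RefSeq on GRCm38.p6, with every CG dinucleotide in capitals. Coordinates on this build are not comparable with the mm9 coordinates of the hotspots.
Hoxc4, chr15:103034145-103034444, plus strand: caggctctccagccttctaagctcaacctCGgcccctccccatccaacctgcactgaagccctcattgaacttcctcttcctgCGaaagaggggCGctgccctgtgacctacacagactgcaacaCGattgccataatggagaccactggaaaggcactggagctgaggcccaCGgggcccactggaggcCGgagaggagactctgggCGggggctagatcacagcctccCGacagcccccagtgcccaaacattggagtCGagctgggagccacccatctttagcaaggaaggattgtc
Hoxb4, chr11:96318017-96318316, plus strand: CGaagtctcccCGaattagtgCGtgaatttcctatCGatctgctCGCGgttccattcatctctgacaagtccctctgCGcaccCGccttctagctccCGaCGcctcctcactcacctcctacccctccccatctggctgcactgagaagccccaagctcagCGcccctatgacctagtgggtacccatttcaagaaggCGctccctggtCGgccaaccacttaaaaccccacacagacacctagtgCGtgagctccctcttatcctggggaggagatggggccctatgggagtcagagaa
Hoxd4, chr2:74721728-74722027, plus strand: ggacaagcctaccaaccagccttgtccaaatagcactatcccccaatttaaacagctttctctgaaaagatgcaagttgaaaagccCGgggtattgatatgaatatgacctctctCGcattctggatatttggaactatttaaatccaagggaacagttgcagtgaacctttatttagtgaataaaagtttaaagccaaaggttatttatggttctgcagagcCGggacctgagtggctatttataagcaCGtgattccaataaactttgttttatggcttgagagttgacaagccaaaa
The Hoxc4 promoter has 9 CG dinucleotides, the Hoxb4 promoter 14 and the Hoxd4 promoter 4. Promoter sequences were found for 22 of the 39 Hox genes, as 24 promoters, of which HoxC had 1, HoxB 3 and HoxA and HoxD 10 each. The median number of CG dinucleotides was 13 in HoxB, 17.5 in HoxA and 20 in HoxD, so single promoters do not stand for their clusters. Over the 24 promoters the median was 14.5, against 7 over 32851 promoters of 27025 genes, and 100% of the Hox promoters held at least 1, against 94.6% of all promoters. CG is its own reverse complement, so both strands give the same count.

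The lists differ greatly in length. Brg1 replicates 1 and 2 have 115361 and 260036 hotspots, CHD4 replicates 1 and 2 have 39797 and 293135, and Snf2h replicates 1 and 2 have 32310 and 79969. Brg1 replicate 2 and CHD4 replicate 2 reach down to a Z score of 2.00, whereas the lowest Z score of the other 4 lists lies between 8.50 and 9.49. The Z score is the caller's measure of how far the tags of a hotspot exceed its local background. Sequencing depth is not given in these lists, so each window was set against the 5120 complete tiles of 500 kb of the same list, with tiles that overlap a Hox window left out. A single list made up 331 of the 489 merged regions (67.7%), against 76.6% over the genome. Those of the windows were from Brg1 replicate 2 or CHD4 replicate 2 in 85.1% to 86.9% of cases by window, against 79.4% over the genome.

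HoxC, HoxB and HoxA held more hotspots than an average 500 kb of the genome in every library, whichever remodeler was mapped. HoxC had on average 1.83 ± 0.536 times as many as the mean tile, HoxB 1.75 ± 0.471 times and HoxA 1.37 ± 0.0745 times (SD, n = 6 libraries). HoxD differed between libraries: it was above the mean tile by all libraries except CHD4 replicate 1 and Snf2h replicate 1, and averaged 1.05 ± 0.530 times.

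The HoxC window held 34 and 66 Brg1 hotspots in replicates 1 and 2, 18 and 70 CHD4 hotspots, and 15 and 34 Snf2h hotspots. The HoxB window held 36 and 63 Brg1, 19 and 73 CHD4, and 13 and 28 Snf2h hotspots. HoxC and HoxB were thus close to each other in every list.

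The HoxA window held 31 and 69 Brg1, 10 and 84 CHD4, and 8 and 22 Snf2h hotspots. The HoxD window held 26 and 85 Brg1, 2 and 85 CHD4, and 4 and 16 Snf2h hotspots. HoxD therefore had the highest count of the 4 windows in Brg1 replicate 2 and CHD4 replicate 2, and the lowest in the other 4 lists. The mean tile held 22.4 and 50.5 Brg1, 7.71 and 56.9 CHD4, and 6.26 and 15.5 Snf2h hotspots.

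On the log2 scale the excess over the mean tile was 0.82 ± 0.44 in HoxC, 0.76 ± 0.39 in HoxB and 0.45 ± 0.08 in HoxA, each above 0 in 6 of 6 libraries (exact two-sided sign-flip test over libraries, adjusted p = 0.0417 each after Benjamini-Hochberg adjustment over 4 windows). For HoxD it was -0.17 ± 1.00, above 0 in 4 of 6 libraries (adjusted p = 0.8125 by the same exact test), and without CHD4 replicate 1 it was 0.19. The test asks whether libraries repeat a direction, and 0.03125 is the smallest unadjusted p it can give. It does not ask whether a window is unusual among tiles: HoxC lay at the 73.2nd to 97.7th percentile of tiles by number, HoxB at the 66.6th to 95.2nd, HoxA at the 69.5th to 95.4th and HoxD at the 19.3rd to 97.7th. When every list was shortened to its 32310 tallest hotspots, the HoxA excess was 0.01 and no longer passed. Against tiles of the same chromosome only, the log2 excess was 0.70 in HoxC, 0.48 in HoxB, 0.49 in HoxA and -0.29 in HoxD. HoxB was thus no denser than HoxA on that scale, and HoxC, HoxB and HoxA still passed (exact sign-flip test, adjusted p = 0.0417 each).

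**Figure D1:**
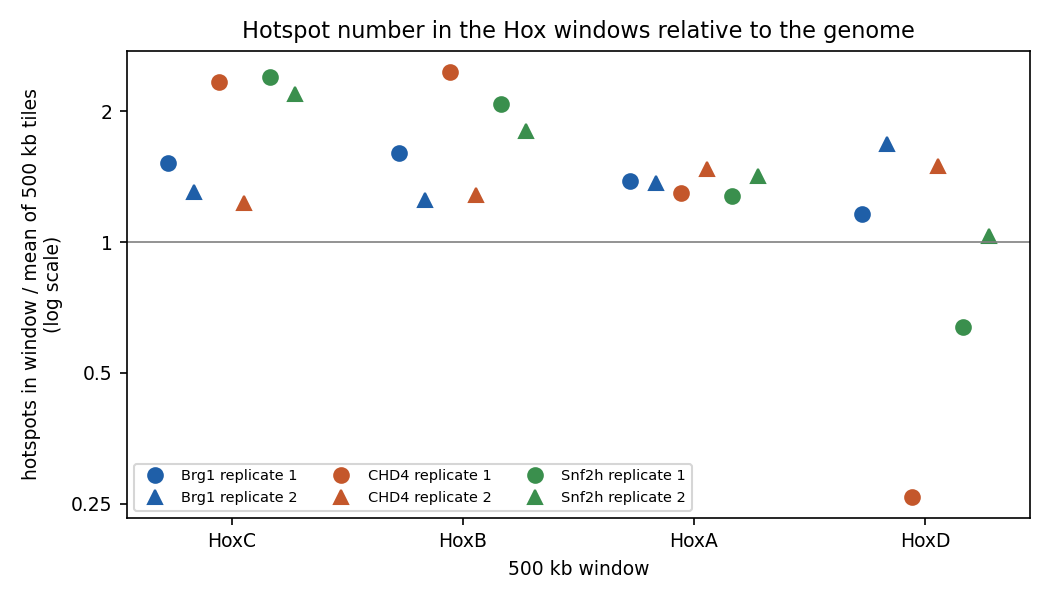
Hotspots in each Hox window divided by the mean of 500 kb tiles of the same list (log scale), 1 point per library, with colour for the antibody and shape for the replicate, and a line at a ratio of 1. HoxC, HoxB and HoxA points all lie above 1, and HoxD points run from 0.260 to 1.68.

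No pair of windows passed a test of the difference in number when the lists were taken whole. The log2 difference was 0.98 for HoxC minus HoxD, 0.93 for HoxB minus HoxD, 0.62 for HoxA minus HoxD, 0.36 for HoxC minus HoxA, 0.31 for HoxB minus HoxA and 0.06 for HoxC minus HoxB, with adjusted p from 0.225 to 0.469 over the 6 pairs (exact two-sided sign-flip test, n = 6 libraries). The picture differed once the lists were cut at 1 common Z score, 9.49, the highest of the lists' own lowest scores. At that score the difference from HoxD was 1.68 for HoxC, 1.63 for HoxB and 1.02 for HoxA, and that from HoxA was 0.66 for HoxC and 0.60 for HoxB, all with an adjusted p of 0.0375 (exact sign-flip test, n = 6 libraries). HoxD kept 8 of its 85 Brg1 replicate 2 hotspots at that score, or 9.41%, against 21.0% of the whole list, and 3 of its 85 CHD4 replicate 2 hotspots, or 3.53%, against 10.4% of the whole list. HoxB kept 36.5% and 21.9% of its hotspots in the same lists. In the 32310 tallest hotspots of each list, HoxC had 15 to 31 hotspots, HoxB 13 to 24, HoxA 4 to 9 and HoxD 0 to 5. That cut is by height, so these counts largely restate the heights given below.

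No difference in number between antibodies passed in any window. The difference between the 3 antibodies accounted for 52.2% of the variation between libraries in HoxC, 29.0% in HoxB, 5.61% in HoxA and 28.4% in HoxD (exact permutation over the 15 splits of 6 libraries into 3 pairs, adjusted p = 0.889, 0.889, 0.933 and 0.889). This design cannot pass 0.05, since its smallest p is 0.0667.

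The hotspots of HoxC and HoxB ranked higher in their lists than those of HoxA and HoxD. Height is the maximum tag density of a hotspot as the authors deposited it. No source states the scale of the density, so each hotspot was ranked within its own list, where 50 is the middle.

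In HoxC the median hotspot stood at the 76.0th and 79.5th percentile in the Brg1 lists, the 62.3rd and 83.2nd in the CHD4 lists and the 80.7th and 74.96th in the Snf2h lists. In HoxB it stood at the 72.7th and 76.3rd in the Brg1 lists, the 60.9th and 80.4th in the CHD4 lists and the 77.1st and 70.0th in the Snf2h lists. Every library therefore placed the middle HoxC and HoxB hotspot above the middle of its list.

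In HoxA the median hotspot stood at the 43.8th and 35.2nd percentile in the Brg1 lists, the 38.8th and 35.3rd in the CHD4 lists and the 54.0th and 44.0th in the Snf2h lists. In HoxD it stood at the 40.2nd and 30.1st in the Brg1 lists, the 32.5th and 35.3rd in the CHD4 lists and the 50.5th and 40.1st in the Snf2h lists. Only Snf2h replicate 1 put HoxA and HoxD past the middle of its list. The ranges of HoxC and HoxB over libraries did not overlap those of HoxA and HoxD.

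Heights averaged 76.1 ± 7.40 in HoxC, 72.9 ± 6.90 in HoxB, 41.9 ± 7.10 in HoxA and 38.1 ± 7.27 in HoxD (median percentile, SD, n = 6 libraries). HoxC exceeded HoxD by 38.0 percentile points and HoxA by 34.3, and HoxB exceeded HoxD by 34.8 and HoxA by 31.0, each in 6 of 6 libraries (exact two-sided sign-flip test, adjusted p = 0.0375 over 6 pairs). HoxC minus HoxB was 3.23 points, in 6 of 6 libraries with the same adjusted p, and turned to -2.06 at the common Z score. HoxA minus HoxD was 3.73 points and missed the threshold (5 of 6 libraries, exact test, adjusted p = 0.0625). With lists of equal length HoxC minus HoxA was 7.88 points and HoxB minus HoxA 10.8, and neither passed (exact sign-flip test, adjusted p = 0.469 and 0.375). Against 50, no single window passed after adjustment over the 4 windows (exact sign-flip test, adjusted p = 0.0625 each, n = 6 libraries), with HoxC and HoxB above 50 in 6 of 6 libraries and HoxA and HoxD in 1 of 6. The pairs were chosen after the values had been seen. Over the 4 windows together the median was 14.7 ± 6.06 points above 50 in 6 of 6 libraries (exact sign-flip p = 0.03125), but with lists of equal length it was -1.28 points. Set against the median heights of tiles, HoxC lay at the 73.3rd to 94.4th percentile, HoxB at the 71.9th to 91.9th and HoxA at the 40.6th to 56.7th. HoxD lay at the 36.9th to 52.9th in the 4 lists where it had at least 5 hotspots.

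The contrast held at the top of the height scale, and at its low end mainly in Brg1 replicate 2 and CHD4 replicate 2. A hotspot above the 90th percentile was counted as being in the top class, which holds, because heights are tied, 9.95% and 10% of the Brg1 lists, 9.87% and 9.77% of the CHD4 lists, and 9.63% and 10.1% of the Snf2h lists. In HoxC, 4 of 34 and 15 of 66 Brg1, 3 of 18 and 19 of 70 CHD4, and 6 of 15 and 6 of 34 Snf2h hotspots were that tall. In HoxB, 4 of 36 and 18 of 63 Brg1, 4 of 19 and 21 of 73 CHD4, and 5 of 13 and 8 of 28 Snf2h hotspots were. In HoxA, 4 of 69 Brg1 replicate 2, 4 of 84 CHD4 replicate 2 and 2 of 22 Snf2h replicate 2 hotspots were, and 0 in each replicate 1. In HoxD, 1 of 85 Brg1 replicate 2 and 2 of 16 Snf2h replicate 2 hotspots were, and 0 in the other 4 lists. The share averaged 22.7% ± 10.0 in HoxC and 26.1% ± 9.19 in HoxB, and 3.27% ± 3.86 in HoxA and 2.28% ± 5.03 in HoxD (SD, n = 6 libraries).

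The lowest HoxC hotspot of a list stood at the 49.1st to 62.0th percentile and the lowest HoxB hotspot at the 24.4th to 51.9th. The lowest HoxA hotspot stood at the 1.11th to 29.5th percentile and the lowest HoxD hotspot at the 5.65th to 30.4th. Among Brg1 replicate 2 hotspots, 0 of 66 in HoxC and 0 of 63 in HoxB fell below the 25th percentile, against 30 of 69 in HoxA and 41 of 85 in HoxD. Among CHD4 replicate 2 hotspots, 0 of 70 in HoxC and 0 of 73 in HoxB did, against 25 of 84 in HoxA and 20 of 85 in HoxD. HoxC and HoxB thus held no such low hotspot in the pair of lists that reach farthest down. Near the lowest Z score, though, heights differed by window. In CHD4 replicate 2, a HoxB hotspot with a Z score of 2.07 stood at the 68.7th percentile, and a HoxD hotspot with 2.10 at the 18.3rd. In Brg1 replicate 2, a HoxC hotspot with 2.03 stood at the 71.2nd, and a HoxD hotspot with 2.02 at the 5.65th. Whether lower HoxC or HoxB hotspots fell under the lists' lowest Z score was not tested. By ranking, about 25% of a whole list falls below its 25th percentile, and ties shift that share. HoxA and HoxD were near it in CHD4 replicate 2, at 29.8% and 23.5%, and above it in Brg1 replicate 2, at 43.5% and 48.2%. The remaining lists, Brg1 replicate 1, CHD4 replicate 1 and Snf2h replicates 1 and 2, held few such low hotspots. In that order HoxA had 4 of 31, 3 of 10, 0 of 8 and 2 of 22. HoxD had 3 of 26, 0 of 2, 0 of 4 and 0 of 16. HoxB had 1 of 19 in CHD4 replicate 1 and 0 in the rest, and HoxC had 0 in each.

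**Figure D2:**
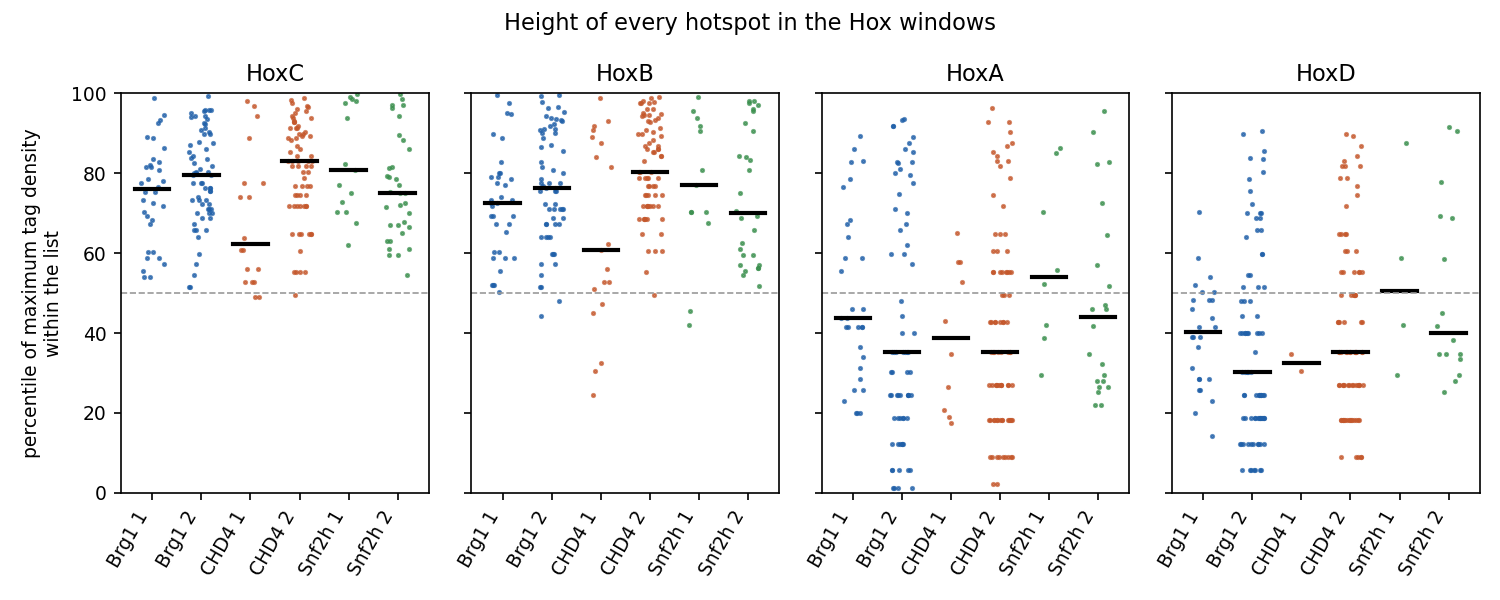
Height percentile within the list of every hotspot in the 4 windows, by library, with a bar at the median and a dashed line at 50. HoxC and HoxB points lie mostly in the upper part of each list. HoxA and HoxD points spread from near the bottom in Brg1 replicate 2 and CHD4 replicate 2, and from higher up in the other lists.

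The ratio of density to Z score moved with these heights. A HoxC hotspot had 1.50 ± 0.123 times, and a HoxB hotspot 1.40 ± 0.123 times, the density per unit of Z score of the whole list, against 0.900 ± 0.0690 times in HoxA and 0.899 ± 0.139 times in HoxD (median ratio, SD, n = 6 libraries). Ranked by Z score, the median hotspot stood at percentile 58.9 ± 6.07 in HoxC, 59.5 ± 11.5 in HoxB, 52.7 ± 11.6 in HoxA and 47.8 ± 15.7 in HoxD, and no pair passed (exact sign-flip test, adjusted p from 0.375 to 0.875, n = 6 libraries). The chromosomes differed too, in that the median hotspot of a whole chromosome stood on average at percentile 59.3 on chromosome 15, 68.4 on chromosome 11, 50.7 on chromosome 6 and 53.0 on chromosome 2. Within its own chromosome the median hotspot stood on average at percentile 67.9 in HoxC, 55.6 in HoxB, 41.7 in HoxA and 34.3 in HoxD, and all 6 pairs passed (exact sign-flip test, adjusted p = 0.03125, n = 6 libraries). The part of the density per unit of Z score and of the chromosome in the heights was not tested.

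**Figure D3:**
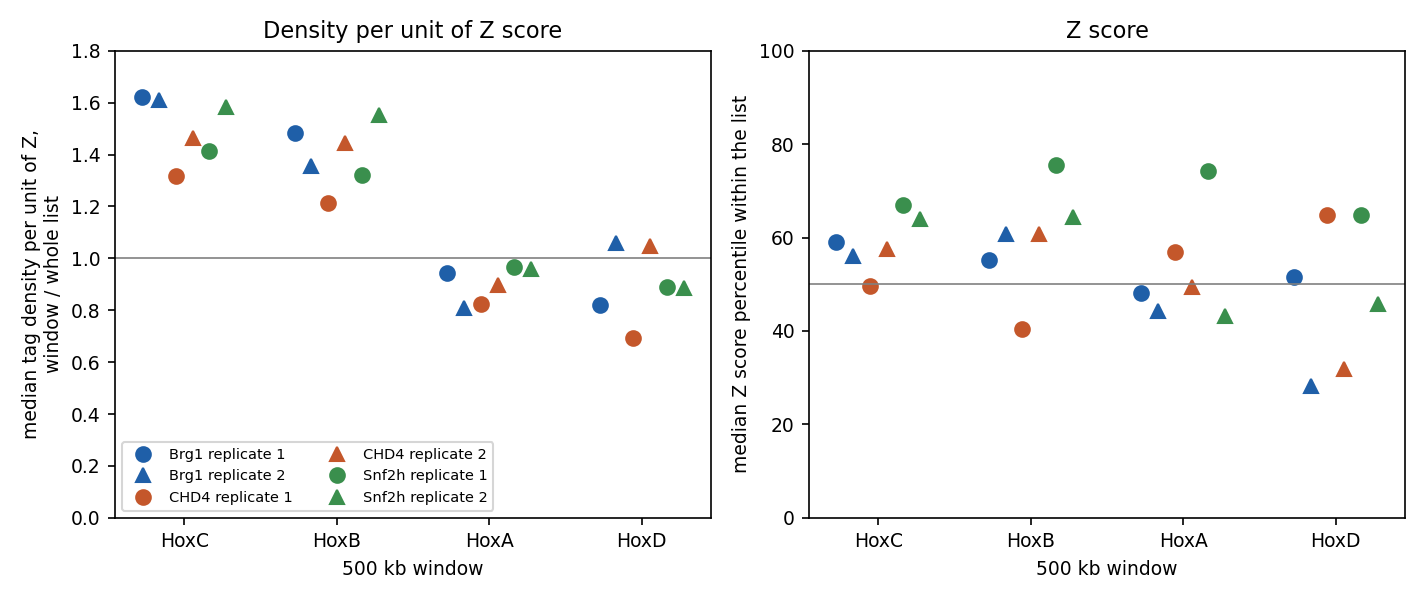
Left, median tag density per unit of Z score in each window divided by that of the whole list, with a line at 1, and right, median Z score percentile within the list, with a line at 50, with 1 point per library. HoxC and HoxB points all lie above HoxA and HoxD points on the left, and the windows overlap on the right.

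With the lists taken whole, sites shared by the 3 remodelers made up a larger share of the regions of HoxC and HoxB than of HoxA, and the smallest share in HoxD. A region was counted for an antibody when either of its libraries had a hotspot there. All 3 antibodies shared 22 of 103 regions in HoxC (21.4%, 95% Wilson interval 14.6% to 30.2%) and 20 of 101 in HoxB (19.8%, 13.2% to 28.6%). They shared 13 of 128 in HoxA (10.2%, 6.03% to 16.6%) and 6 of 157 in HoxD (3.82%, 1.76% to 8.09%). Over the genome the share was 7.42%, which lies inside the HoxA and HoxD intervals. These intervals cover counting error only, and neighbouring regions are not independent. Without Snf2h replicate 2 the share was 8.82% in HoxC, 10.1% in HoxB, 5.56% in HoxA and 1.31% in HoxD, against 3.52% over the genome. The order of the first 3 windows turned with list length. Among hotspots at or above the median height of their list the share was 21.4% in HoxC, 19.2% in HoxB, 21.9% in HoxA and 10.4% in HoxD. No genome share is given for that setting, so these values cannot be set against the genome. With lists of equal length the share was 37.8%, 46.7%, 38.5% and 28.6% in the same windows, against 28.3% over the genome. Regions with at least 2 antibodies made up 35.9% of HoxC, 40.6% of HoxB, 26.6% of HoxA and 20.4% of HoxD regions, against 21.5% of the genome's.

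Regions of 1 remodeler alone made up most of the windows, as of the genome, and no test was run on these classes. Over the 4 windows, 61 of 489 regions (12.5%) had all 3 antibodies, against 7.42% of the genome's, and 66 (13.5%) had Brg1 with CHD4, against 11.4%. Brg1 with Snf2h was found in 9 regions and CHD4 with Snf2h in 8, classes that hold 1.49% and 1.20% of the genome's regions. Brg1 alone marked 172 regions (35.2%), against 37.9% of the genome's, and CHD4 alone marked 157 (32.1%), against 34.3%. Snf2h alone marked 16 (3.27%), against 6.25%. Of the 94 regions with any Snf2h hotspot, 61 also had both other remodelers (64.9%, against 45.3% over the genome). Shared regions were also wider, with a median of 1122 bp for 3 antibodies and 623 bp for Brg1 with CHD4, against medians between 351 and 379.5 bp for single antibodies, and width is in part fixed by merging more hotspots.

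**Figure D4:**
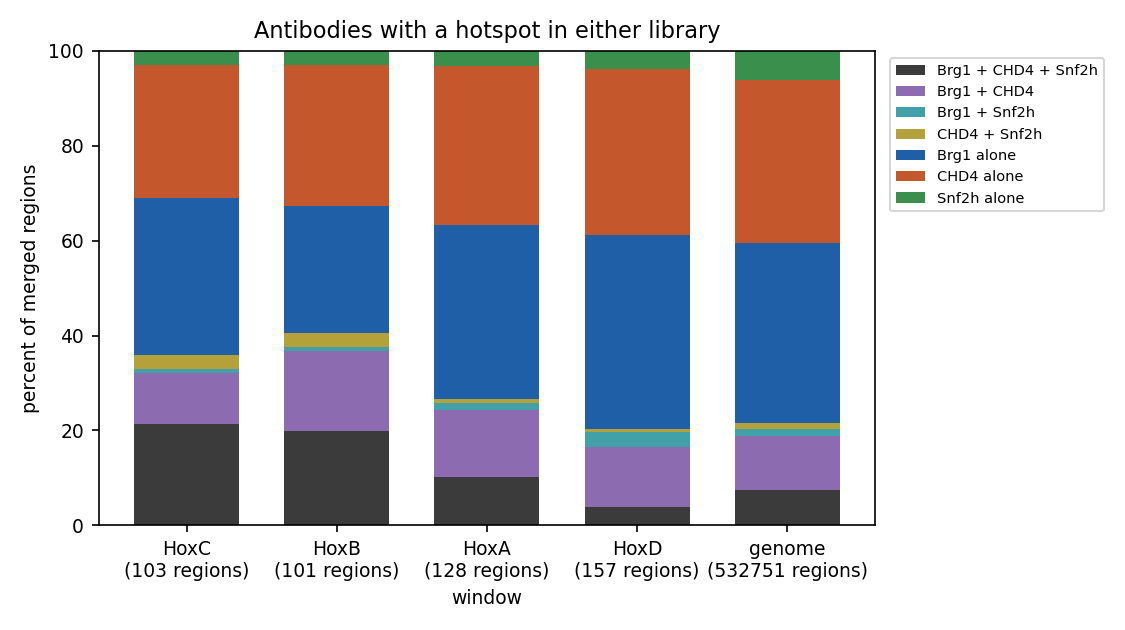
Percent of merged regions in each antibody class, stacked, for the 4 Hox windows and the whole genome. The dark bar for Brg1 with CHD4 and Snf2h reaches 21.4% in HoxC and 19.8% in HoxB, against 3.82% in HoxD and 7.42% in the genome.

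Hotspots pooled over the 4 windows were found again by the other library of the same antibody more often than those of the whole lists, and the windows differed in this. For Brg1, 67.7% of replicate 1 and 27.6% of replicate 2 hotspots in the windows overlapped a hotspot of the other replicate, against 49.8% and 20.3% of the whole lists. For CHD4 the shares were 91.8% and 14.7%, against 83.4% and 10.8%, and for Snf2h they were 85.0% and 33.0%, against 58.6% and 23.0%. The difference averaged 12.3 ± 8.31 percentage points, higher in 6 of 6 libraries (exact two-sided sign-flip p = 0.03125, n = 6 libraries). The 2 libraries of an antibody are scored on the same overlaps. The 6 values are therefore not independent, as the test takes them to be, and its p is too small. With lists of equal length the difference was 6.49 points and no longer passed.

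HoxC and HoxB were above the whole list in all 6 libraries, HoxC with 73.5% and 34.8% in the Brg1 lists, 94.4% and 25.7% in the CHD4 lists and 100% and 41.2% in the Snf2h lists. HoxB had 80.6% and 42.9% for Brg1, 89.5% and 23.3% for CHD4, and 84.6% and 39.3% in the Snf2h pair. HoxA had 20.3% in Brg1 replicate 2 and 10.7% in CHD4 replicate 2, close to the 20.3% and 10.8% of those lists, and was above the list in the other 4. HoxD was below the list in Brg1 replicate 2 (16.5%), CHD4 replicate 2 (2.35%), Snf2h replicate 1 (2 of 4 hotspots) and Snf2h replicate 2 (12.5%). The windows were not tested one by one.

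By window, Brg1 was replicated in 20 regions of HoxC, 24 of HoxB, 13 of HoxA and 12 of HoxD. CHD4 was replicated in 17 regions of HoxC, 15 of HoxB, 6 of HoxA and 2 of HoxD. Snf2h was replicated in 14 regions of HoxC, 10 of HoxB, 7 of HoxA and 2 of HoxD. Over the 4 windows Brg1 was replicated in 14.1% of regions, CHD4 in 8.18% and Snf2h in 6.75%, against 9.60%, 5.65% and 3.39% of the genome's regions. In HoxA the shares were 10.2% for Brg1, close to the genome's, 4.69% for CHD4, below it, and 5.47% for Snf2h, above it. In HoxD the shares were 7.64% for Brg1 and 1.27% each for CHD4 and Snf2h, all below the genome's. A replicated CHD4 site in HoxD needs a hotspot of CHD4 replicate 1, which had 2 there.

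Of the 87 CHD4 hotspots in HoxD, 2 came from replicate 1 (2.30%, 95% Wilson interval 0.633% to 8.0%), against 11.95% of the 2 whole CHD4 lists. That share put HoxD at the 9.34th percentile of tiles. In HoxC and HoxB it was 20.5% and 20.7%.

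The hotspots were not spread evenly along the windows. In HoxC, the stretches 250 to 300 and 300 to 350 kb from the window start held 51 and 54 hotspots summed over the 6 lists and 6 regions of 3 antibodies each, whereas the 50 kb before them held 5 hotspots and the 50 kb after them held 4. In HoxB, 45 hotspots and 6 regions of 3 antibodies fell between 200 and 250 kb, 44 hotspots between 350 and 400 kb, and only 2 between 300 and 350 kb. HoxC thus had 2 dense neighbouring stretches with sparse ones on both sides, and HoxB had 1 nearly empty stretch among bins of 9 to 45 hotspots. In HoxA, 49 hotspots and 6 of its 13 regions of 3 antibodies fell between 250 and 300 kb. In HoxD, 41 hotspots and 3 of its 6 such regions fell between 200 and 250 kb. The longest stretch without any hotspot was 30.2 kb in HoxC, 33.0 kb in HoxB, 16.3 kb in HoxA and 18.2 kb in HoxD. The windows with taller hotspots thus had the longer empty stretches, but also fewer merged regions. HoxC and HoxB had 103 and 101, against 128 in HoxA and 157 in HoxD, and a link of the stretches to height was not tested. The longest stretch without a region of 3 antibodies was 125 kb in HoxC, 122 kb in HoxB, 193 kb in HoxA and 135 kb in HoxD.

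**Figure D5:**
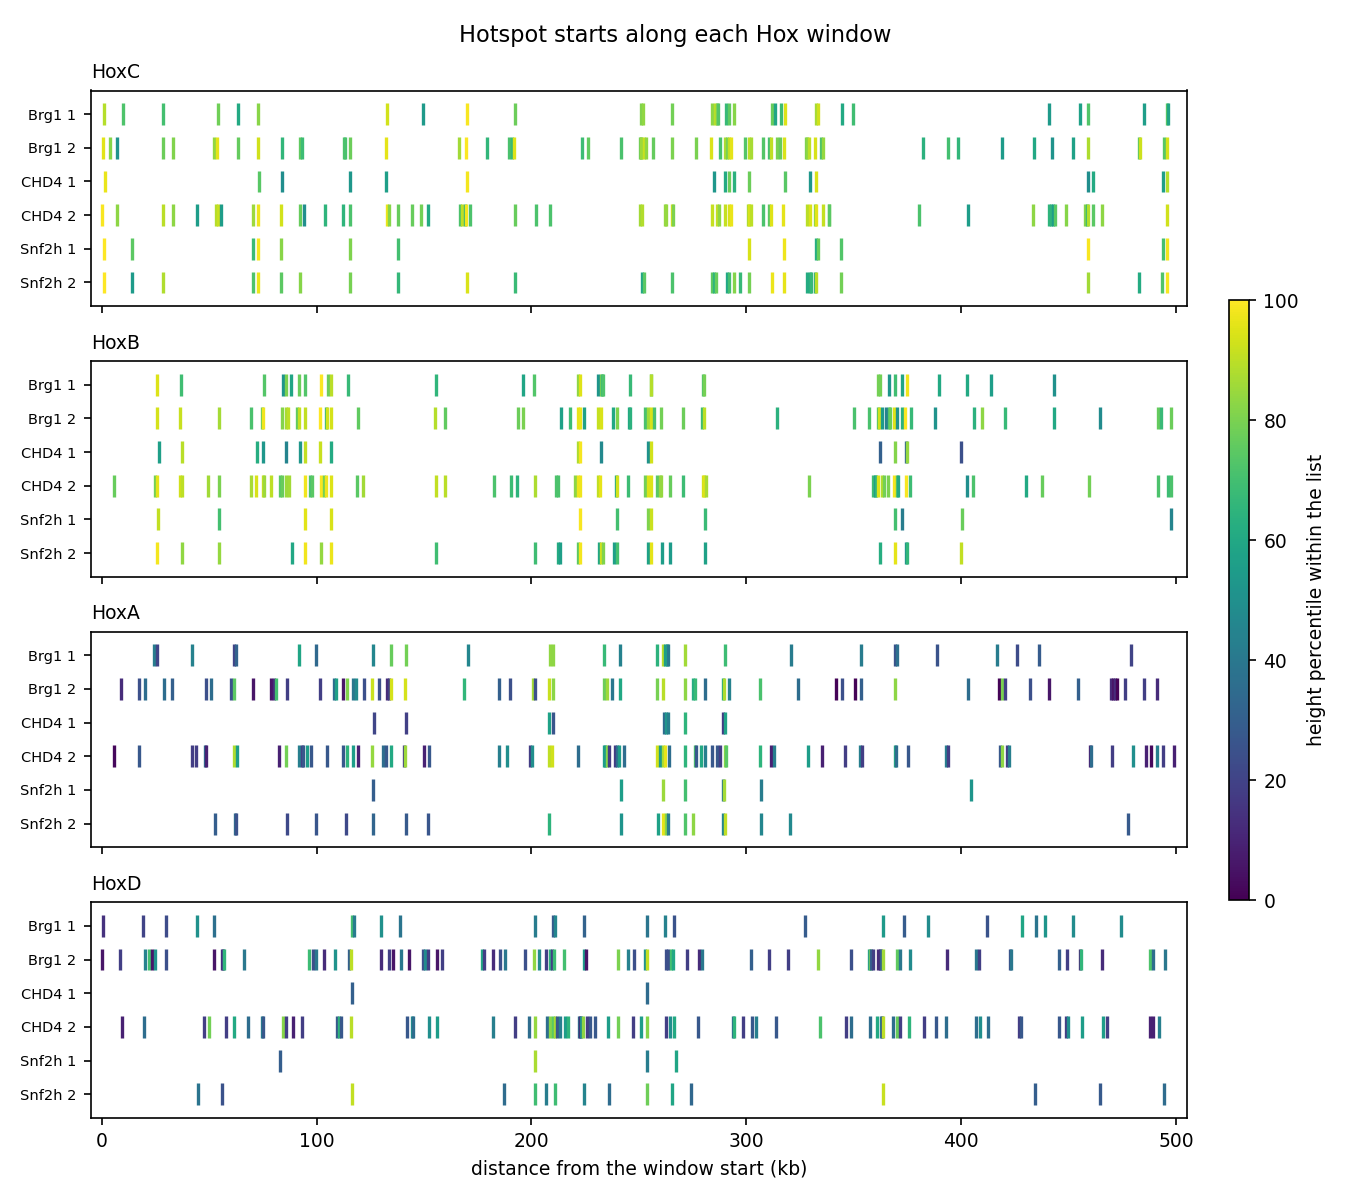
Hotspot starts along each Hox window, in kb from the window start, with 1 row per library and colour for the height percentile within the list. HoxC and HoxB show tall hotspots, with sparse stretches at 350 to 400 kb in HoxC and 300 to 350 kb in HoxB, and HoxD shows many low hotspots in Brg1 replicate 2 and CHD4 replicate 2 and few in the other lists.

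All 6 lists met in 17 regions, 6 in HoxC, 6 in HoxB, 4 in HoxA and 1 in HoxD, or 3.48% of the regions of the windows, against 1.96% of the genome's. The tallest by mean rank was in HoxB at chr11:96122616-96123451, where the maximum density was 77.6 and 31.6 in the Brg1 lists, 50.3 and 16.3 in the CHD4 lists and 54.0 and 60.3 in the Snf2h lists, replicate 1 before replicate 2. Densities of different lists share no known scale, but each of these values stood at or above the 95.2nd percentile of its list, so all 3 remodelers were near the top of their range at 1 site. The widest HoxB region, chr11:96154053-96156605, is 2553 bp long and joins 12 hotspots, with densities of 49.8 and 20.7 in the Brg1 lists, 32.9 and 11.9 in the CHD4 lists and 29.8 and 45.6 in the Snf2h lists. Its percentiles were between 88.9 and 96.0.

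At chr11:95994641-95995336 Brg1 replicate 1 was at the 72.7th percentile and the other 5 lists between the 90.9th and 97.8th. Both chr11:96006767-96007763 and chr11:95925716-95927176 had CHD4 replicate 1 as their lowest list, at the 60.9th and 56.2nd percentile, with the other lists at or above 89.8 and 90.7. In each of these sites the lowest value came from replicate 1 of an antibody whose replicate 2 stood above the 90th percentile.

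HoxC held the tallest Snf2h site of the windows. At chr15:102500101-102502065, 1965 bp long and beginning 0.101 kb inside the window, the density was 49.8 and 26.6 in the Brg1 lists, 40.6 and 21.0 in the CHD4 lists and 73.4 and 157 in the Snf2h lists. The Snf2h values stood at the 99.8th and 99.96th percentiles of their lists and the Brg1 values at the 88.9th and 95.6th. This site lies at the edge of the window, so the rule reaches no farther on that side.

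Snf2h also had the highest percentiles in both libraries at chr15:102995659-102996588, at the other end of the window, with percentiles 98.0 and 98.6 against 75.4 and 93.7 for Brg1 and 88.8 and 92.8 for CHD4. At chr15:102817111-102818346, inside the dense stretch, Brg1 stood at percentiles 94.7 and 94.4, CHD4 at 74.2 and 96.1, and Snf2h at 97.7 and 96.4. At chr15:102831769-102833801, also inside it, Brg1 stood at percentiles 92.6 and 94.0, CHD4 at 94.4 and 95.5, and Snf2h lower, at 77.1 and 89.7. Ranks in lists of different length are given side by side and were not compared by a test.

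The widest HoxC region, chr15:102783569-102787969, is 4401 bp long and joins 13 hotspots from every list except Snf2h replicate 1. At chr15:102572887-102573557 CHD4 replicate 1 was lowest, at percentile 74.2, and Snf2h replicate 1 highest, at 98.6.

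The tallest Brg1 hotspots of the windows were in regions that Snf2h replicate 1 lacked, and these 2 regions were picked after their values had been seen. At chr11:96001772-96002984 in HoxB the density was 181 and 81.9 for Brg1, 31.2 and 21.7 for CHD4, and 25.3 in Snf2h replicate 2. At chr15:102669670-102671099 in HoxC it was 138 and 72.0 for Brg1, 46.1 and 18.5 for CHD4, and 40.4 in Snf2h replicate 2. Both Brg1 values stood at or above the 98.9th percentile at either site, and Snf2h replicate 2 stood at percentiles 84.1 and 94.5.

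In HoxA, 3 of the 4 sites of all 6 lists lay between 250 and 300 kb from the window start, its densest stretch. The tallest and widest, chr6:52161169-52164587, is 3419 bp long and joins 15 hotspots, with densities of 51.0 and 12.97 in the Brg1 lists, 14.6 and 14.1 in the CHD4 lists and 24.2 and 44.4 in the Snf2h lists. Its percentiles ran from 52.8 in CHD4 replicate 1 to 96.4 in CHD4 replicate 2. Those lists differ greatly in length, with 39797 and 293135 hotspots. Over the genome's regions of all 6 lists their median percentiles were 74.2 and 96.1. The percentiles therefore cannot show whether the 2 CHD4 libraries ranked the site alike. The next, chr6:52189791-52191047, had percentiles 68.4 and 87.6 in the Brg1 lists, 57.8 and 83.2 in the CHD4 lists and 86.4 and 90.4 in the Snf2h lists.

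At chr6:52171467-52172267 the percentiles were closer together, from 64.9 to 86.1. The site at chr6:52025904-52027199, at 126 kb from the window start, was low in 4 lists, with percentiles from 20.7 to 46.0, and high in Brg1 replicate 2 and CHD4 replicate 2, with percentiles of 91.9 and 84.3.

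In HoxD the single site of all 6 lists was chr2:74553708-74554704, with densities of 12.2 and 14.9 in the Brg1 lists, 11.4 and 5.93 in the CHD4 lists and 12.5 and 20.8 in the Snf2h lists. It stood at percentiles 39.0, 34.6 and 42.0 in replicate 1 of the 3 antibodies and at 90.7, 81.9 and 77.9 in replicate 2. The replicates 2 thus ranked it above the middle of their lists and the replicates 1 below. The widest HoxD region, chr2:74415927-74418156, is 2230 bp long and had densities of 23.7 and 13.9 for Brg1, 10.7 and 8.15 for CHD4, and 32.9 in Snf2h replicate 2, with no Snf2h replicate 1 hotspot. A Brg1 replicate 2 hotspot begins 0.085 kb inside the HoxD window, over a Brg1 replicate 1 hotspot that begins 0.040 kb before it and is therefore no member.

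Over the 17 regions the Snf2h medians were above those of the genome, and the Brg1 and CHD4 medians were close to or below theirs. The median height percentile was 91.9 and 96.0 in Snf2h replicates 1 and 2, against 74.995 and 86.8 over the genome's regions of all 6 lists. For Brg1 it was 86.1 and 93.4, against 88.1 and 94.3, and for CHD4 it was 74.2 and 95.5, against 74.2 and 96.1. These are descriptions of few regions with no test.

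Some sites were found by both libraries of 1 remodeler and by no other list. Brg1 had 10 (2.04% of the regions, against 1.6% of the genome's), of which 2 lay in HoxC, 3 in HoxB, 0 in HoxA and 5 in HoxD. CHD4 had 2 and Snf2h had 2 (0.409% each, against 0.149% and 0.133% of the genome's). The highest Brg1 sites were chr15:102815522-102816267, with densities of 22.6 and 6.01, chr11:96096073-96096528, with 18.0 and 7.12, and chr15:102563516-102564009, with 18.5 and 6.01.

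The CHD4 sites were chr11:95972035-95972722, with densities of 16.6 and 11.1, and chr15:102961107-102961665, with 16.3 and 4.94. The Snf2h sites, both in HoxC, were chr15:102843869-102844388, with densities of 19.4 and 21.3, and chr15:102514152-102514575, with 20.1 and 11.6. All 7 were of middling rank, with a mean percentile between 64.8 and 78.2, below the HoxC and HoxB sites shared by all 6 lists.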

How the data were processed

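ChIP-seq of Brg1, CHD4 and Snf2h was done in 3134 cells. The authors deposited 1 hotspot list per library, with mm9 coordinates, per the submitters' processing notes, which also name CASAVA 1.6. The deposited lists give, per the file headers, a signal (maximum and average tag density), a score (Z score) and a p-value for each hotspot. The caller's settings, and whether an input was subtracted, are stated neither in the labels nor in the headers. Deposited p-values were not used.

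Hotspots starting in the 4 windows were taken as members, and overlaps of at least 1 bp were merged. Members and lists were chosen with earlier results of these data known. Number was divided by the mean of 500 kb tiles. Height was ranked within each list with ties averaged. Libraries were compared by exact two-sided sign-flip tests (64 patterns), antibodies by exact permutation over 15 splits, with Benjamini-Hochberg adjustment within each family and a threshold of 0.05. The 2 libraries of an antibody are not independent, since they share the antibody. Named regions were the up to 5 highest of all 6 lists per window by mean percentile, the up to 3 highest replicated regions of each single antibody, and the widest per window. The steps were tested on simulated data. The lists give no tag total, so depth is unknown. A planned overlap with promoters was not run, because mm9 gene positions were not used here. Python 3.11.15, numpy 2.4.6, pandas 2.3.3, scipy 1.17.1 and matplotlib 3.10.9 were used. The alternatives were a common Z score, equal list lengths, the taller part of each list, covered length, other tiles, other measures of height, stricter overlap, and each library left out.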

Additional observations from a re-analysis of the deposited data

How the results depend on the processing

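The lists carry no tag totals, so depth cannot set a lower limit on what was detectable, and list length and the lowest Z score differ between libraries. Apart from library removals, 80 values were labelled unchanged, 18 no longer passed the threshold, 11 newly passed it, 17 moved and 4 reversed. Unchanged meant the same direction and side of the threshold only for values with a sign-flip test. Shares of regions by antibody class had no test. For them, unchanged meant inside the Wilson interval of the main setting, and moved meant outside it. Comparisons of antibodies could only be labelled unchanged, since their smallest p is 0.0667, or 0.167 with the replicate number as a block. The height pairs, and ranking within the chromosome, were chosen after the values had been seen. The causes of the changes below were not tested.

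The log2 excess of HoxA was 0.00824 with lists of equal length and 0.11 in the taller part of each list, meaning hotspots at or above its median height. HoxD could not be given there, since a list held 0 hotspots. Among pairs, HoxB minus HoxA newly passed at a common Z score (0.60), at equal length (1.56) and in the taller part (1.49), and HoxC minus HoxA likewise (0.66, 1.70 and 1.66). Equal length and the taller part keep hotspots by height, in which these windows were already seen to differ. Their differences in number therefore largely restate the heights and are no separate support. At the common Z score HoxA minus HoxD (1.02), HoxB minus HoxD (1.63) and HoxC minus HoxD (1.68) also passed.

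The height of all windows over the middle of the lists was -1.28 percentile points at equal length, 10.1 by average density, 5.62 by Z score and 4.42 within the chromosome, none of which passed. HoxB minus HoxA no longer passed at equal length (10.8), by Z score (6.74) or by width (10.0246), nor did HoxC minus HoxA (7.88, 6.13 and 14.7). HoxC minus HoxB was -2.06 at the common Z score, -2.95 at equal length, -0.605 by Z score and 4.67 by width. By Z score and width, HoxB minus HoxD was 11.6 and 14.6, and HoxC minus HoxD was 11.0223 and 19.3. HoxA minus HoxD newly passed by average density (6.11) and within the chromosome (7.32).

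The share of regions with 3 antibodies over the 4 windows was 22.7% at the common Z score, against 14.7% of the genome's, and 40.2% at equal length, against 28.3%. It was 18.8% in the taller part, for which no genome share is given, and 3.48% when both libraries were required, against 1.96% of the genome's. In the same settings HoxA gave 18.4%, 38.5%, 21.9% and 3.125%, and HoxD 10.8%, 28.6%, 10.4% and 0.637%. HoxB moved at the common Z score (31.7%), at equal length (46.7%) and with both libraries (5.94%), and HoxC at equal length (37.8%) and with both libraries (5.83%). The excess found by the other library was 6.49 points at equal length and 4.01 in the taller part, and did not pass.

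With 1 library left out, the smallest exact sign-flip p is 0.0625 for 5 libraries and 0.125 for 4, so no such value can pass. The log2 excess ranged from 0.73 to 0.92 in HoxC, 0.65 to 0.85 in HoxB, 0.43 to 0.47 in HoxA and -0.35 to 0.19 in HoxD, where it reversed without CHD4 replicate 1. Pair differences ranged from 0.01 to 0.08 for HoxC minus HoxB, 0.26 to 0.49 for HoxC minus HoxA, 0.19 to 0.41 for HoxB minus HoxA, 0.55 to 1.25 for HoxC minus HoxD, 0.47 to 1.20 for HoxB minus HoxD and 0.28 to 0.80 for HoxA minus HoxD. Heights ranged from 12.8 to 16.4 over all windows, and their pair differences from 2.88 to 3.59, 31.5 to 36.4, 28.2 to 32.8, 35.7 to 39.6, 32.5 to 36.4 and 3.21 to 4.47 in the same order. The share with 3 antibodies ranged from 5.83% to 13.3% in all, 8.82% to 22.9% in HoxC, 10.1% to 20.4% in HoxB, 5.56% to 11.0169% in HoxA and 1.31% to 5.45% in HoxD, with each lowest value without Snf2h replicate 2. The excess found by the other library ranged from 9.40 to 15.4 points.

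The 3 antibodies' share of the variation ranged from 37.9% to 95.9% in HoxC, 9.60% to 84.3% in HoxB, 5.11% to 50.7% in HoxA and 13.8% to 91.1% in HoxD with a library left out. With the replicate number as a block it was 72.5% in HoxC, 58.9% in HoxB, 12.5% in HoxA and 53.7% in HoxD, with adjusted p of 0.667, 0.667, 0.833 and 0.667 by exact permutation within blocks, whose smallest p is 0.167. The block changed no call. Differences between replicates 1 and 2 of 2 antibodies correlated across 5120 tiles with r of 0.316 for Brg1 and CHD4, 0.247 for Brg1 and Snf2h and 0.223 for CHD4 and Snf2h. Across the 4 Hox windows, deviations of same-numbered replicates from their antibody's mean log2 excess correlated far more closely. There r was 0.989, 0.996 and 0.996 in the same order, each from only 4 points, so the replicate number went with a shared pattern in these windows. Replicate 2 is the longer list for every antibody, and the labels do not say that the number marks a shared batch.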
